A study of Caenorhabditis elegans with 4 samples.

Results

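Gene expression after exposure to bisphenol A (BPA) was set directly against gene expression after exposure to di(2-ethylhexyl) phthalate (DEHP) in whole worms of Caenorhabditis elegans, a soil nematode. The comparison uses 2 of the 4 arrays of the study, the one titled for 24 h of BPA and the one titled for 24 h of DEHP, and both were chosen by their titles. Both held wild-type hermaphrodites, young adults of 3 days from age-synchronized plates with OP50 bacteria, that were then held unfed in K-medium, which is salt water, for 24 h at 20 °C. Doses were set at 1/100 of the 24 h LC50 (the lethal concentration for the median animal) of each chemical. The doses of BPA and DEHP were therefore set by lethality and not by molar amount, and the comparison is one of equal fractions of lethality. The labels give neither the doses in molar units nor the solvent nor the number of worms pooled. The array titled for NP, also unfed for 24 h, is given beside some values, and the untreated array was not used. One protocol field speaks of RNA from fibroblast cultures, against every other label field. The arrays were treated as worm samples, and markers of worm tissues were read on both.

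BPA is a bisphenol, a molecule with a pair of phenol rings that is used to make polycarbonate plastic, while DEHP, which softens vinyl plastic, is a phthalic acid diester. C. elegans answers foreign compounds mainly in the intestine and epidermis, with cytochrome P450 and UDP-glucuronosyltransferase enzymes that oxidise and conjugate them. A worm without food switches from building fat to burning it: nuclear hormone receptors and other transcription factors turn on acyl-CoA synthetases, carnitine palmitoyltransferases and lysosomal lipases. The intestine is also the seat of defence against swallowed bacteria, with lysozymes, C-type lectins and secreted CUB-domain proteins.

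Transcripts were read with Affymetrix C. elegans Genome arrays. A gene was called detected if the brighter of the 2 arrays reached an intensity of 134, the median of all probe sets on both arrays, and 8858 of 17138 genes did. Differences are log2 values of BPA minus DEHP relative to the median detected gene, so a positive value is a higher signal with BPA. Each side has 1 array, so there is no replicate, no error and no test, and every value describes these arrays only. Of the 58 gene lists used below, 57 were chosen with earlier results of these data known. The abu and pqn list was chosen after its values were seen. Shares of list members past 2-fold are therefore descriptions and not tests of enrichment. Genes with a dagger (†) rest on a probe set named _s_ or _x_. Its probes can match several transcripts, so that close paralogs cannot be told apart. Values under an intensity of 29.7 were set to it as a floor, and a gene with 1 array at the floor has a bound, written as "at least".

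At least 2-fold apart were 437 detected genes, or 4.93%. Of all detected genes, 251 (2.83%) were higher with BPA and 186 (2.1%) were lower with BPA. For BPA against NP the same call gave 8.88% of detected genes, 6.56% higher and 2.31% lower with BPA. For DEHP against NP it gave 7.46%, with 5.32% higher and 2.14% lower with DEHP. The fewest genes thus lay 2-fold apart between BPA and DEHP. The NP array also had a higher ratio of 3-prime to 5-prime signal for actin (1.88, against 1.22 with BPA and 1.37 with DEHP). Its median intensity was 109, against 140 with BPA and 127 with DEHP. The part of these array traits in the counts was not tested. Across the 8858 genes the log2 levels of BPA and DEHP had a Pearson's r of 0.953, where r across genes describes the arrays and genes are not replicates. The central 95% of differences ran from -0.91 to 1.05. Of the higher genes, 127 had a DEHP intensity under the detection level, and of the lower genes, 81 had a BPA intensity under it, so the size of these differences is uncertain. Both sides therefore hold many dim genes, but 35 higher and 43 lower genes were at least 4-fold apart. Such dim genes passed detection only through their brighter array. Shares of list members past 2-fold are thus partly set by how genes were chosen. They are to be read beside the 2.83% higher and 2.1% lower of all detected genes. Among 49 genes past 2-fold with several detected probe sets, all probe sets lay on the same side for 46, or 93.9%, and past 2-fold for 25. Probe sets of the same 2 arrays give no sampling error for BPA against DEHP.

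**Figure D1:**
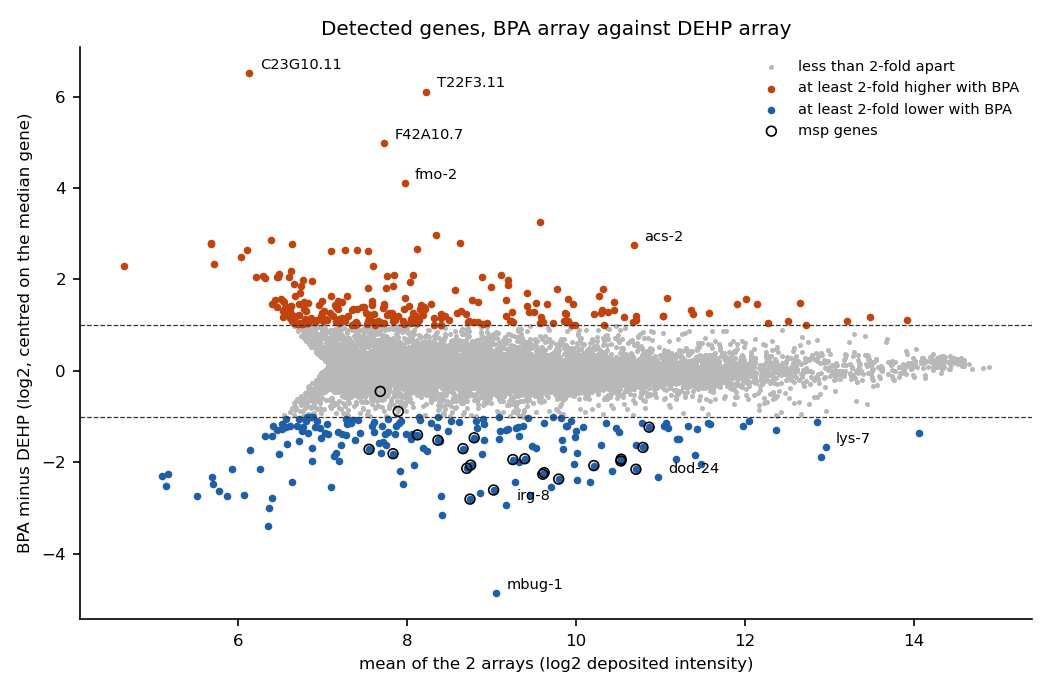
The difference between the BPA and DEHP arrays (vertical axis, log2, centred on the median detected gene) is plotted against the mean log2 deposited intensity of the 2 arrays for 8858 detected genes, with dashed lines at 2-fold and black rings on the 23 msp genes. A few genes stand far above the 2-fold line, among them fmo-2 at 4.11, and the msp genes lie below the median gene as a group.

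Several fasting-linked genes of fat breakdown were higher with BPA. Of 17 detected genes of a list of genes known to rise on fasting, 5 were at least 2-fold higher with BPA (29.4%, against 2.83% of all detected genes) and 0 were lower, while after quantile or loess scaling 1 was lower. The acyl-CoA synthetase gene acs-2, which activates fatty acids for mitochondrial oxidation and is a standard reporter of fasting in the worm, had an intensity of 4292 with BPA and 630.1 with DEHP. That is a log2 difference of 2.75, and the other detected probe set of acs-2 read 1.57. The lysosomal lipase gene lipl-1 had 340.9 with BPA and 55.2 with DEHP, a difference of 2.61. Its relative lipl-3† had 197 with BPA and 13.3 with DEHP, which lies under the floor, so lipl-3 was at least 6.87-fold higher with BPA. Both lipases break down stored fat in lysosomes and are induced in starved worms. On the DEHP array both were under the detection level.

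Some genes of the steps that follow acs-2 in fatty acid oxidation lay on the same side. The carnitine palmitoyltransferase gene cpt-5, which hands fatty acids to the mitochondrion, had 205 with BPA and 75.1 with DEHP (1.44). The enoyl-CoA hydratase gene ech-1.1† had 354 with BPA and 145 with DEHP (1.27). The hydroxyacyl-CoA dehydrogenase gene hacd-1 had 4750 with BPA and 1959 with DEHP (1.26). Hydratase and dehydrogenase act one after the other in the oxidation spiral. The acyl-CoA synthetase gene acs-11 lay on the line, with 455.8 with BPA and 225 with DEHP (1.00), and it read 0.96 after quantile or loess scaling. In the whole oxidation list, 5 of 45 detected genes were higher (11.1%) and 0 lower (1 lower after quantile or loess scaling), yet the list's median was -0.08 and 30 of its members lay below the median gene. So the difference sat in few members, 3 of which also belong to the fasting list. The fasting list's own median was 0.31, but only 0.10 over its brighter genes.

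Most genes that fasted worms keep low were similar on both arrays. Of 11 detected genes of that list, only acs-11 was past 2-fold, and the list's median was 0.12. The lowest value was that of acdh-1, with 5932 with BPA and 10812.5 with DEHP (-0.88). The elongase genes elo-5† (5377 with BPA and 6104 with DEHP) and elo-6† (4616 with BPA and 5472 with DEHP), which build branched-chain fatty acids, differed by -0.20 and -0.26. The NP array had 587 for elo-5 and 670.3 for elo-6, far under both. The delta-9 desaturase gene fat-5 read 447 with BPA and 388 with DEHP (0.19). Of 22 detected genes that build, desaturate or elongate fatty acids, only the delta-6 desaturase gene fat-3, an enzyme of polyunsaturated fatty acid synthesis, was past 2-fold, with 13909 with BPA and 6463 with DEHP (1.09). The glyoxylate cycle gene icl-1†, which lets worms make sugar from fat, had 16799 with BPA and 10294 with DEHP (0.69). The receptor gene nhr-49, a regulator of the fasting response, had 2422 with BPA and 2682 with DEHP (-0.16).

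The flavin-containing monooxygenase gene fmo-2 had one of the largest differences of any named gene. This enzyme adds oxygen to nitrogen and sulphur atoms, and the gene is known to respond to low oxygen and to food restriction. Its intensity was 1050 with BPA and 60.1 with DEHP, a difference of 4.11, and the NP array had 88.8. The BPA array was thus alone in a clear fmo-2 signal. All 5 detected members of the family lay above the median gene, with fmo-3 at 0.84, fmo-5† at 0.69, fmo-1† at 0.56 and fmo-4 at 0.17. The other probe set of fmo-1 was past 2-fold, with 347 with BPA and 155 with DEHP (1.14), so its probe sets disagree on the call.

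Other single genes of transport and storage were higher with BPA. The aquaglyceroporin gene aqp-1, an intestinal water and glycerol channel, had 3797 with BPA and 1236 with DEHP (1.60). The bestrophin gene best-1, of an anion channel family, had 912.8 with BPA and 116 with DEHP (2.97). The ferritin gene ftn-1†, an iron store of the intestine, had 2391 with BPA and 681 with DEHP (1.80), and 2886 with NP. For ftn-1 the DEHP array was therefore the low one, while for aqp-1 (304.8 with NP) and best-1 (98.9 with NP) the BPA array was the high one. The gene far-7, of a family of secreted lipid carriers, had 2372 with BPA and 824 with DEHP (1.51), and its relative far-3† had 167 with BPA and 353 with DEHP (-1.09). The other 4 detected far genes lay between -0.06 and 0.25.

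Major sperm protein genes were lower with BPA, and this was the largest block of genes that lay on one side. The major sperm proteins drive the crawling of nematode sperm and also act as the signal that ripens oocytes, and in a hermaphrodite they are transcribed while sperm are made. Of 23 detected msp genes, 21 were at least 2-fold lower with BPA (91.3%, against 2.1% of all detected genes) and 0 higher, with a median of -1.93. Their intensities ran from 104.1 to 1226 with BPA (median 269) and from 239 to 3516 with DEHP (median 1190). Summed over the 23 genes, the signal was 9140 with BPA and 33596 with DEHP. The gene msp-45† had 163 with BPA and 1129 with DEHP (-2.80). For msp-76† the values were 212 with BPA and 1279 with DEHP (-2.60), and for msp-53† 799.8 with BPA and 3516 with DEHP (-2.15). The smallest differences were those of msp-74† (-0.45) and msp-142† (-0.89), the only msp genes short of 2-fold. The NP array had an msp sum of 6610 and a median of 185, so that BPA and NP were alike and the DEHP array was the high one. All 23 msp genes were read by shared probe sets, so the block may count the same transcripts several times.

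Other genes of sperm were mixed, and most defining sperm genes were dim. Of 21 detected genes of spermatogenesis outside the msp family, 8 were lower with BPA (38.1%, against 2.1% of all detected genes). Higher were 2 (9.52%, against 2.83%). The median was -0.14, and it was 0.06 over the 9 genes on unshared probe sets. Among the lower ones, msd-2† had 134 with BPA and 552.5 with DEHP (-2.06), and nspd-2† had 47.9 with BPA and 167 with DEHP (-1.82). The gene msrp-2 had 15.5 with BPA, under the floor, and 192 with DEHP, so that it was at least 6.21-fold lower with BPA. The higher ones were nspb-12† (430.1 with BPA and 86.8 with DEHP, 2.30) and nspb-11† (272 with BPA and 106 with DEHP, 1.35). Several lower genes, among them nspd-2 and msrp-2, passed detection only through the DEHP array, and both nspb genes only through the BPA array. These shares are thus partly set by how genes were chosen. Of the 5 sperm markers spe-9†, gsp-3†, gsp-4†, spe-11 and fer-1, 0 reached the detection level on either array. Their summed intensity was 202 with BPA and 296 with DEHP, and they did not lie on one side. The sperm phosphatase gene gsp-3† had 27.9 with BPA, under the floor, and 106 with DEHP (-1.77, a bound). Also below the median gene were gsp-4† (-0.53) and fer-1 (-0.07). Above it lay spe-9† (0.27) and spe-11 (0.12, under the floor on both arrays). In whole worms, fewer cells of a type and less RNA per cell cannot be told apart.

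Oocyte and germline transcripts did not show a difference of that size. Of 50 detected genes of oocytes, eggshell and maternal RNA control, 0 were past 2-fold in either direction and all lay between -0.40 and 0.39. The yolk receptor gene rme-2 had 8280 with BPA and 8719 with DEHP, and the eggshell gene cbd-1† had 11838 with BPA and 11455 with DEHP. Of 32 germ granule genes and 39 meiosis genes, 0 were past 2-fold, with medians of -0.11 and -0.19. After quantile or loess scaling 1 meiosis gene was lower. Most members lay below the median gene, with 39 of the 50 oocyte, 25 of the 32 germ granule and 32 of the 39 meiosis genes. Among the yolk proteins, vit-1 had 717 with BPA and 2197 with DEHP (-1.63). The other 4 detected vit genes, which are far brighter, lay between 0.02 and 0.26. Cell cycle and DNA replication genes had 1 member past 2-fold among 73, the origin recognition gene orc-3 (-1.02).

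**Figure D2:**
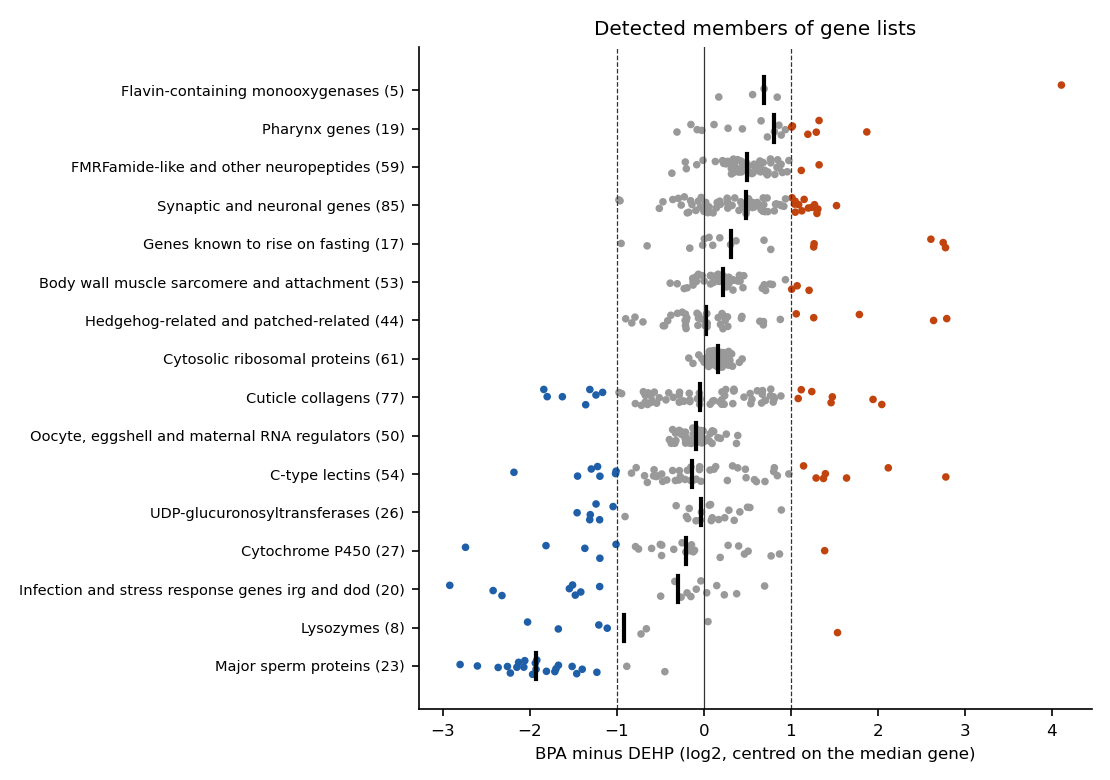
Each point is a detected gene of the list named at the left (number of detected genes in brackets), placed by its difference of BPA minus DEHP (log2, centred on the median detected gene); orange points are at least 2-fold higher with BPA, blue points at least 2-fold lower, and black bars are list medians. Major sperm proteins (median -1.93, all on shared probe sets) and lysozymes (-0.92, or -0.31 over the 4 genes on unshared probe sets) lie to the left. Pharynx genes (0.81), neuropeptides (0.50) and synaptic genes (0.49) lie to the right.

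Infection response genes past 2-fold were lower with BPA, as were most lysozymes, while lectins were split and antimicrobial peptides past 2-fold were higher. Of 20 detected infection and stress response genes named irg, dod and the like, 8 were at least 2-fold lower with BPA. That is 40.0%, against 2.1% of all detected genes, while 0 were higher and the median was -0.30. The gene irg-8 had 210.4 with BPA and 1579 with DEHP (-2.92). The gene dod-24†, a CUB-domain gene of the response to bacteria, had 900.4 with BPA and 4457 with DEHP (-2.32). The infection response gene irg-5 had 43.1 with BPA and 229 with DEHP (-2.42). NP did not place these genes alike: irg-8 had 95.1 with NP, while dod-24 had 2454 and irg-5 had 192. The other 5 lower genes were cld-9 (-1.55), dod-22 (-1.51), dod-19† (-1.48), sysm-1 (-1.42) and irg-7† (-1.198), of which the last 3 were named after their values were seen. Detection rested on the DEHP array alone for irg-5, cld-9 (124 with BPA) and sysm-1 (51.8 with BPA). The share is thus partly set by how genes were chosen.

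Lysozymes, enzymes that cut bacterial cell walls, had a median of -0.92 over 8 detected genes, and -0.31 over the 4 on unshared probe sets. Of the 8, 4 were at least 2-fold lower with BPA (50%, against 2.1% of all detected genes). Higher was 1 (12.5%, against 2.83%). The gene lys-2† had 1428 with BPA and 5764 with DEHP (-2.03), and lys-7† had 4480 with BPA and 14148 with DEHP (-1.67). The gene lys-1 had 2677 with BPA and 6123 with DEHP (-1.21), and the invertebrate-type gene ilys-5† had 5072 with BPA and 10847 with DEHP (-1.11, with -1.17 and -0.99 on its other probe sets). On the NP array these 4 genes had 1230, 2191, 2392 and 3306, each below both other arrays. The lysozyme gene ilys-3 went the other way, with 219 with BPA and 74.6 with DEHP (1.54), and lys-4† (-0.72), lys-8 (-0.66) and ilys-4 (0.05) were within 2-fold. Without the filter on dim genes the lysozyme median over all 16 genes was 0.06, since genes at the floor on both arrays lie above the median gene by construction.

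C-type lectins, sugar-binding proteins of which many respond to infection, were split, with 7 higher and 7 lower genes among 54 detected (12.96% each way) and a median of -0.14. The lower ones were led by clec-41†, with 648 with BPA and 2915 with DEHP (-2.18), and clec-85, with 619 with BPA and 1676 with DEHP (-1.45). The higher ones were led by clec-52, with 263 with BPA and 37.8 with DEHP (2.78), and clec-82, with 188 with BPA and 42.8 with DEHP (2.12). The list held large differences in both directions, and its median hides them. Antimicrobial peptides of the saposin-like, caenacin and related families had 6 higher genes among 29 (20.7%, against 2.83% of all detected genes). Lower were 0, although their median was -0.15. The peptide gene nlp-26 had 703 with BPA and 110 with DEHP (2.66). The saposin-like gene spp-31 had 1178 with BPA and 294 with DEHP (1.99), and spp-27 had 160 with BPA and 26.96 with DEHP, at least 5.60-fold higher with BPA. The other higher ones were fipr-2 (1.57), the thaumatin gene thn-1 (1.12) and spp-1† (1.05, named after its value was seen). Of the 6, nlp-26, spp-27 and thn-1 (67.4 with DEHP) passed detection only through the BPA array. Their share is thus partly set by how genes were chosen.

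Digestive proteases of the gut had 4 lower genes and 1 higher among 21 detected, with a median of -0.32. The aspartyl protease gene asp-17 had 7.82 with BPA, under the floor, and 151 with DEHP, at least 4.88-fold lower with BPA. The aspartyl protease gene asp-13† had 2082 with BPA and 4576 with DEHP (-1.15), and asp-14† had 931 with BPA and 2178 with DEHP (-1.24). The cathepsin B-like gene cpr-3† had 536 with BPA and 1165 with DEHP (-1.13), and its other probe set read -1.76. In the same family, cpr-2 was the reverse, with 449 with BPA and 105 with DEHP (2.08). Detection rested on the DEHP array alone for asp-17 and on the BPA array alone for cpr-2. The protease list therefore had members past 2-fold in both directions. Over its detected genes the median was -0.42 with quantile scaling, -0.31 as deposited and -0.39 with loess scaling. It was 0.01 over all 26 members when dim genes were kept. Genes at the floor on both arrays lie above the median gene by construction, so that value gives no direction.

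Enzymes of detoxification that were past 2-fold were mostly lower with BPA. Of 27 detected cytochrome P450 genes, 5 were lower (18.5%, against 2.1% of all detected genes). Higher was 1 (3.70%, against 2.83%), and the median was -0.21. The cyp-35 genes, which are inducible by many foreign compounds in the intestine, led: cyp-35A2 had 254 with BPA and 886.5 with DEHP (-1.82), and cyp-35C1† had 145 with BPA and 370.4 with DEHP (-1.37). The gene cyp-35A3 had 16.4 with BPA, under the floor, and 207 with DEHP, so that it was at least 6.69-fold lower with BPA. For cyp-13A5 the values were 632 with BPA and 1432 with DEHP (-1.196), and cyp-13A2 lay at -1.01. Detection rested on the DEHP array alone for cyp-35A3 and cyp-13A2 (82.6 with BPA), so the share is partly set by how genes were chosen. The only higher P450 gene was cyp-32A1 (288 with BPA and 109 with DEHP, 1.39), and its other probe set read 0.69. The NP array had 271 for cyp-35A2, close to BPA, and 118 for cyp-35A3, between the 2 others.

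UDP-glucuronosyltransferases, which attach sugars to foreign compounds, had 6 lower genes among 26 detected (23.1%, against 2.1% of all detected genes). Higher were 0, and the median was -0.03. The gene ugt-44 had 655 with BPA and 1610 with DEHP (-1.31). The gene ugt-62 had 351 with BPA and 858 with DEHP (-1.31), and ugt-22 had 297 with BPA and 695 with DEHP (-1.24). For all 3 the NP array was below BPA, with 519, 253 and 263. Some of the 6 lower genes, among them ugt-12† (76.8 with BPA), passed detection only through the DEHP array. Glutathione S-transferases had 1 gene past 2-fold among 23, gstk-2† (346 with BPA and 142 with DEHP, 1.27), and a median of -0.15. Among 32 detected ABC transporters, which pump compounds out of cells, pgp-1† of the intestine had 166 with BPA and 552.6 with DEHP (-1.75). The transporter genes pgp-14† (1.54) and pgp-10 (1.04) were the 2 higher ones, and the unshared probe set of pgp-14 read 0.53.

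Receptors and hormones had few members past 2-fold. Of 80 detected nuclear hormone receptor genes, 1 was lower and 2 were higher, close to the share of all genes, and after quantile or loess scaling 2 were lower and 1 higher. The lower one was nhr-114, a receptor gene linked to diet and fertility, with 198 with BPA and 567 with DEHP (-1.53). Of 9 detected insulin-like peptide genes only ins-7, an agonist of the insulin receptor made in intestine and neurons, was past 2-fold, with 111 with BPA and 385 with DEHP (-1.80). The folate transporter family gene folt-2† had 499.95 with BPA and 2043 with DEHP (-2.05). With it in the list of one-carbon and folate genes, 16 of 20 detected members lay below the median gene (list median -0.24), among them sams-1, which makes S-adenosylmethionine, with 3453 with BPA and 6183 with DEHP (-0.86).

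Neuronal transcripts were higher with BPA as a broad shift of modest size. Of 85 detected synaptic and neuronal genes, 14 were at least 2-fold higher with BPA (16.5%) and 0 lower, 69 lay above the median gene, and the median was 0.49. After quantile or loess scaling 10 were higher and 2 lower. The vesicular glutamate transporter gene eat-4 had 249 with BPA and 85.6 with DEHP (1.53). The synaptotagmin gene snt-1, a calcium sensor of vesicle release, had 419 with BPA and 172 with DEHP (1.27), and its other probe set read 1.204. The touch neuron gene mec-17†, a tubulin acetyltransferase, had 628 with BPA and 252 with DEHP (1.30). The genes past 2-fold spanned transmitters, with unc-17† (1.15) for acetylcholine and, named after their values were seen, unc-47 (1.05) for GABA and cat-1† (1.203) for monoamines. Several of the 14 passed detection only through the BPA array, among them eat-4, unc-17 (125 with DEHP) and cat-1 (67.7 with DEHP). The share past 2-fold is thus partly set by how genes were chosen. The genes snt-1, mec-17 and unc-47 were above the detection level on both arrays. Over the 6 neuronal markers fixed for the tissue check, the summed intensity was 3187 with BPA and 1655 with DEHP, and it was 1783 with NP. All 6 lay between 0.61 and 1.53. When only the brighter genes were kept the median of the neuronal list was 0.17.

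Neuropeptide genes had the same lean with few large members. Of 59 detected FMRFamide-like and other neuropeptide genes, 54 lay above the median gene, with a median of 0.50, and 2 were past 2-fold. These were nlp-39 (152 with BPA and 59.9 with DEHP, 1.33) and nlp-1 (343 with BPA and 156 with DEHP, 1.12). The neuropeptide share past 2-fold (3.39%) was near the 2.83% of all genes, so the list differed in its middle and not in its tail.

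Pharynx genes, of the feeding organ, had the highest median of the tissue lists, 0.81 over 19 detected genes, 6 of them at least 2-fold higher with BPA (31.6%) and 0 lower. The pharyngeal myosin gene myo-2† had 1133 with BPA and 305.8 with DEHP (1.87), and the NP array had 304.5. The other pharyngeal myosin gene, myo-1†, had 3197 with BPA and 1381 with DEHP (1.197), with 1.21 on its other probe set. The gland gene phat-5† had 2096 with BPA and 847 with DEHP (1.29), and marg-1 had 260 with BPA and 103 with DEHP (1.33). The pharyngeal troponin gene tnt-4 read 1.01 and phat-4 read 1.02. DEHP and NP were thus close to each other in the pharynx, with a median NP-minus-DEHP difference of -0.11 and a median NP-minus-BPA difference of -1.04 over the list.

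Genes named abu and pqn, many of which encode glutamine- and cysteine-rich proteins of the pharyngeal lining, were looked at after their values were seen. Of 44 detected, 5 were higher with BPA (11.4%, against 2.83% of all detected genes) and 0 lower, with a median of 0.15. The gene pqn-71 had 702 with BPA and 204 with DEHP (1.77), and abu-15† had 2029 with BPA and 793.5 with DEHP (1.34). Also higher were abu-10 (1.47), abu-6† (1.27) and abu-8† (1.19).

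Body wall muscle and intestine differed less than the pharynx. Of 53 detected genes of the body wall muscle sarcomere and its attachment, 3 were higher and 0 lower, with a median of 0.22. They were the calponin-like gene clik-2 (3194 with BPA and 1366 with DEHP, 1.21, with 0.99 on its other probe set), the troponin gene tni-1† (2379 with BPA and 1119 with DEHP, 1.07) and tnt-4, which is also in the pharynx list. The myosin heavy chain gene unc-54† had 7477 with BPA and 6073 with DEHP (0.29). Of 21 detected intestine genes, 2 were higher, with a median of 0.25, and both encode intestinal intermediate filaments: ifc-1 had 1246 with BPA and 378 with DEHP (1.71), and ifp-1† had 1366 with BPA and 648.4 with DEHP (1.06). The intestinal markers ges-1† (-0.40) and pept-1 (-0.33) lay below the median gene and act-5† (0.33), elt-2 (0.50) and ifb-2 (3588 with BPA and 2326 with DEHP, 0.61) above it.

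Cuticle collagens were past 2-fold in both directions, 7 higher and 7 lower among 77 detected (9.09% each way), with a median of -0.05. Among the lower ones, col-80 had 1452 with BPA and 5149 with DEHP (-1.84), and col-124† had 10726 with BPA and 27239 with DEHP (-1.36). Among the higher ones, col-39 had 968.6 with BPA and 232 with DEHP (2.05), and col-147† had 10789 with BPA and 3834 with DEHP (1.48). Individual collagens thus differed by similar amounts in opposite directions. The adult epidermal collagen marker col-19 had 3658 with BPA and 4406 with DEHP (-0.28).

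Hedgehog-related and patched-related genes are secreted proteins and receptors of the epidermis with roles in molting. Among 44 detected, 5 were higher (11.4%, against 2.83% of all detected genes) and 0 lower, with a median of 0.02. The gene grd-10 had 428 with BPA and 67.9 with DEHP (2.64), and grl-21 had 1645 with BPA and 471 with DEHP (1.79). The gene grl-6 had 199 with BPA and 13.3 with DEHP, under the floor, so that it was at least 6.94-fold higher with BPA. The others were grl-4† (1.26) and ptr-12 (1.06). Of these genes, grd-10, grl-6 and ptr-12 (98.5 with DEHP) passed detection only through the BPA array. The share past 2-fold is thus partly set by how genes were chosen. Transthyretin-like genes, a large nematode family of secreted proteins, had ttr-31 (969 with BPA and 271 with DEHP, 1.82) and ttr-18† (1.34) higher and ttr-23 (-1.59) lower among 31 detected.

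Small heat shock proteins, chaperones that hold damaged proteins, had 2 higher genes among 8 detected, and they are neighbours on chromosome IV. The gene hsp-12.6 had 461 with BPA and 74.7 with DEHP (2.61), and hsp-12.3 had 2199 with BPA and 702 with DEHP (1.63). The NP array was above both, with 2243 for hsp-12.6 and 3012 for hsp-12.3, so that DEHP was the lowest of the 3 unfed arrays for these genes. The remaining members lay between -0.87 and 0.88. Larger chaperones of the HSP70, HSP90 and chaperonin families had 0 of 22 genes past 2-fold, within -0.33 and 0.48. Metallothionein genes, which bind metals, did not differ past 2-fold: mtl-1 had 805 with BPA and 702 with DEHP, with 4694 on the NP array, and mtl-2† had 2456 with BPA and 2381 with DEHP. The cadmium-response genes cdr-2 (625 with BPA and 1433 with DEHP, -1.21) and cdr-4† (-1.01) were lower with BPA. Of 18 detected superoxide dismutase, catalase and peroxidase genes, 0 were past 2-fold.

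Differences between the arrays in housekeeping complexes were close to that of the median gene. In 17 of the 58 lists, 0 detected genes were past 2-fold, among them proteasome subunits (33 genes, median -0.06), mitochondrial ribosomal proteins (53 genes, 0.05), the respiratory chain (53 genes, 0.14) and glycolysis with the citric acid cycle (40 genes, 0.12). Cytosolic ribosomal proteins had a median of 0.17 over 61 genes, which was -0.00 after quantile scaling, so no direction is given for them. The medians of the vitellogenin, hedgehog-related, F-box and autophagy lists, all between -0.02 and 0.09, also changed sign with the scaling. The other 53 lists kept their sign under all 3 scalings.

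Several of the largest differences were of genes without an assigned role here. The gene C23G10.11 had 2619 with BPA and 1.89 with DEHP, under the floor, so that it was at least 91.4-fold higher with BPA, and the NP array had 3.22. The gene T22F3.11 had 2508 with BPA, 36.02 with DEHP and 10.5 with NP (6.11). Its other probe set had 2490 with BPA and 4.53 with DEHP, under the floor. C23G10.11 and T22F3.11 were therefore high on the BPA array alone among the unfed worms. F42A10.7 was low on the DEHP array alone, with 1202 with BPA, 37.6 with DEHP and 921 with NP (4.99). F46C5.1† had 2371 with BPA and 246 with DEHP (3.25), and C35C5.8 had 1045 with BPA and 149 with DEHP (2.80, with 1.55 on its other probe set). On the other side, mbug-1 had 99.6 with BPA and 2860 with DEHP (-4.86), with 597 on the NP array, and spig-20 had 115 with BPA and 1015 with DEHP (-3.16). T05E12.6† had 275 with BPA and 1787 with DEHP (-2.71, with -1.81 on its other probe set), T13F3.6 had 268 with BPA and 1430 with DEHP (-2.43 and -2.46), and Y39B6A.1† had 349 with BPA and 1999 with DEHP (-2.53 and -1.99). Of the 20 lowest genes by the naming rule, 8 were msp genes.

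**Figure D3:**
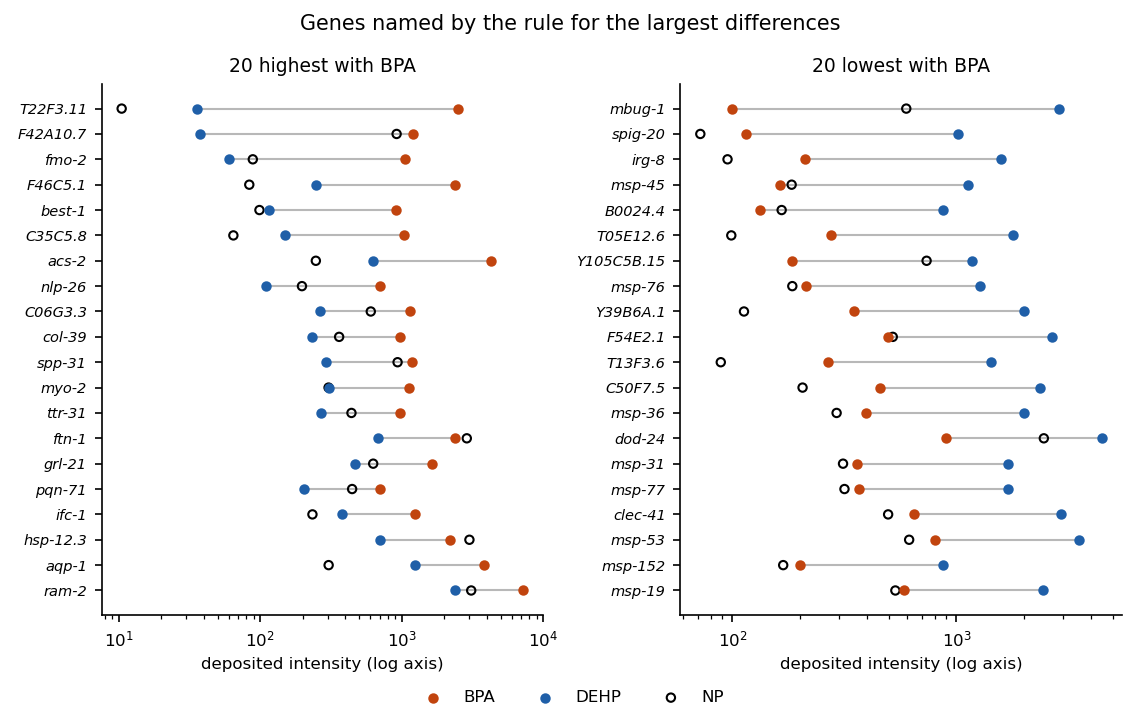
Deposited intensity (log axis) of the 20 highest and 20 lowest genes that met the naming rule, on the BPA array (orange), the DEHP array (blue) and the NP array (open circle), with a grey line joining BPA and DEHP. For acs-2 and fmo-2 the NP point lies near or under DEHP, for hsp-12.3 and ftn-1 it lies above BPA, and for the msp genes it lies near BPA.

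Some of the genes past 2-fold were next to each other in the genome. In the WBcel235 gene table, 25 of the 186 lower genes stood in 10 runs of neighbouring protein-coding genes that were all at least 2-fold lower, and 4 of the 251 higher genes stood in 2 such runs. Of the 10 runs, 3 held msp genes. The longest runs had 4 genes. On chromosome IV, F55G11.8 (252 with BPA and 534 with DEHP), dod-22 (288 with BPA and 811 with DEHP, -1.51), F55G11.2 (8.73 with BPA and 148 with DEHP, under the floor with BPA) and mbug-1 were neighbours. On chromosome II, F01D5.1† (-1.52), F01D5.2, F01D5.3 (-1.38) and F01D5.5 (-1.70) were. Others were lys-1 beside lys-2†, dod-19† beside irg-8 and F35E12.6 (926 with BPA and 2301 with DEHP, -1.33) beside irg-5, all on chromosome V. Genes in these runs that fall outside the naming rule were named after their values were seen. Neighbours of similar sequence can share probes, and this was not tested.

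By chromosome, the share of detected genes past 2-fold was lowest on chromosome I, with 1.18% higher and 0.523% lower of 1530 genes. On chromosome V it was 4.40% higher and 3.36% lower of 1546 genes. Chromosome IV was the one with more lower (3.91%) than higher genes (3.22%), and 10 of its 57 lower genes were msp genes, as were 11 of the 38 lower genes of chromosome II. On the X chromosome 44 of 1295 genes were higher (3.40%) and 17 lower (1.31%), against 2.83% and 2.1% of all detected genes.

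**Figure D4:**
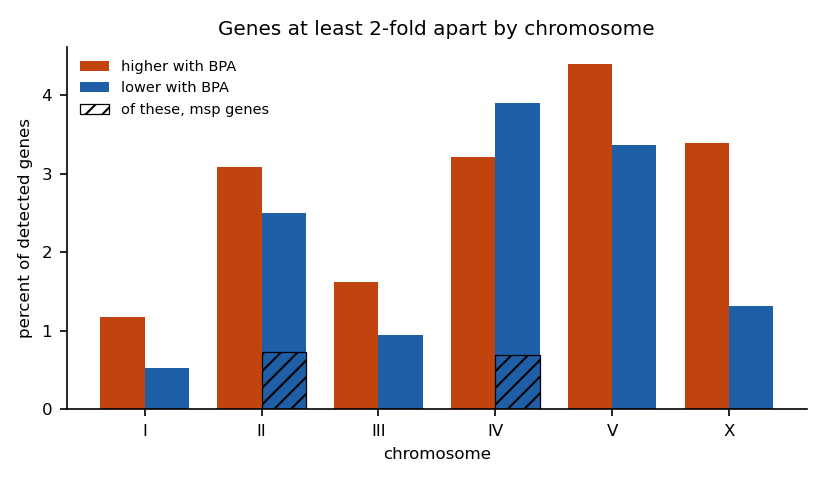
Bars give the percent of detected genes on each chromosome that were at least 2-fold higher (orange) or lower (blue) with BPA than with DEHP, and the hatched part is that of msp genes. Chromosomes I and III have the lowest shares, and chromosome IV alone has more lower than higher genes.

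The NP array was put on the same scale and its level was set beside both arrays at the genes past 2-fold. At the 251 genes higher with BPA, NP was nearer to DEHP for 175, or 69.7%, and the median NP-minus-BPA difference was -0.97. Genes are not replicates, so no interval is given. At the 186 genes lower with BPA, NP was nearer to BPA for 141, or 75.8%, and the median NP-minus-DEHP difference was -1.55. NP lay between the arrays at 166 of the 251 higher genes and at 77 of the 186 lower genes, and outside both at the rest. NP was below both at pgp-1† (46.8) and folt-2† (108), and above both at hsp-12.6, hsp-12.3, ftn-1†, far-7, cpr-2 and clec-82. Since 127 higher and 81 lower genes passed detection only through their brighter array, nearness to the dimmer array is partly set by how genes were chosen, and nothing is read from these shares. With quantile scaling NP was nearer to DEHP at 59.2% of the higher genes.

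**Figure D5:**
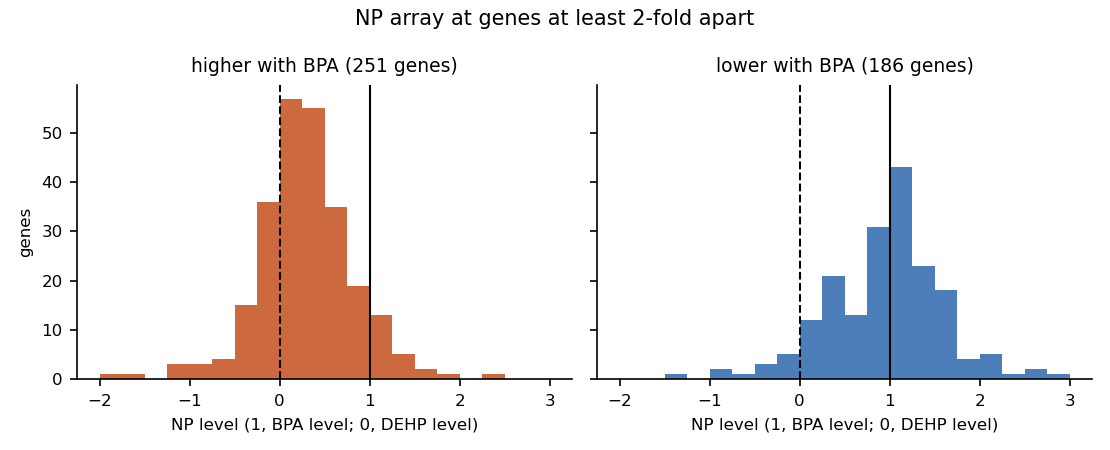
Histograms of the level of the NP array relative to the others at genes at least 2-fold apart, where 1 (solid line) is the BPA level and 0 (dashed line) is the DEHP level; values beyond the axis stand in the end bars. Most of the 251 genes higher with BPA lie nearer to 0, and most of the 186 genes lower with BPA lie nearer to 1.

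RNA quality and tissue make-up were read on the same arrays. The ratio of 3-prime to 5-prime signal of control probe sets was 1.22 with BPA and 1.37 with DEHP for actin, 1.44 with BPA and 1.82 with DEHP for catalase, and 8.28 with BPA and 8.01 with DEHP for ubiquitin. On the NP array these were 1.88, 3.38 and 8.98. When detected genes were put in 5 bins by genomic span, the median difference of the longest bin was 0.05 above that of the shortest. Embryo markers were dim, with 1 of 5 detected (end-1, 254 with BPA and 172 with DEHP), and their sum was 631 with BPA and 422 with DEHP. Markers of intestine, body wall muscle, pharynx, neurons, germline and oocytes were all detected, and the epidermal marker bli-1† was not. The part of these values in the results above was not tested.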

How the data were processed

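The authors deposited 1 linear intensity for each of 22625 probe sets, and its trimmed mean (2% off each end) was 500.1 on both arrays. The sources used here do not give the summary method, software or genome build. The 77 control probe sets were removed, log2 was taken, and the BPA and DEHP arrays were set to a common median, after which the median detected gene read -0.12 and all differences were centred on it. With values as deposited it read 0.01. GEO's platform table gave 1 gene to 20766 probe sets, several to 887 and none to 895. The probe set with the highest mean stood for each of 17138 genes, which mattered for 2966, and 17085 matched the RefSeq WBcel235 table. No test was run, since each side has 1 array, which limits the precision. The detection level (50th percentile), floor (25th) and call (2-fold) are as in the report.

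Genes were named if among the 20 highest or 20 lowest above the floor, with the brighter array past the 75th percentile and the same sign under 3 scalings. Also named were up to 5 members per list and direction past 2-fold, members of lists of at most 12, bounds, and genes with several probe sets past 2-fold. The members and 57 of the 58 lists were chosen with earlier results of these data known, and the abu and pqn list after their values were seen. Tissue markers were fixed separately. The genes nhr-49, icl-1, sams-1, msp-74 and msp-142, and others where the text says so, were chosen after their values were seen. The alternatives were 3 scalings, 2 filters, no floor and 2 probe-set rules. The procedure was tested on simulated data. Python 3.11.15, pandas 2.3.3 and statsmodels 0.14.6 were used.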

Additional observations from a re-analysis of the deposited data

How the results depend on the processing

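Without the filter on dim genes, 752 genes were at least 2-fold higher and 373 lower with BPA, and with the filter at the 75th percentile 76 and 86. Under the other 6 planned settings both counts stayed within 1.5 times, as they did without the msp genes, a setting chosen after seeing the data. Of 156 named genes past 2-fold, 89 kept the call with the stricter filter and 97 with unshared probe sets alone. Most of the others were not read under these settings, being too dim or without a detected unshared probe set. Of all 240 named genes, 134 were read with the stricter filter, and all of these were unchanged. With unshared probe sets 153 were unchanged, 1 was weaker, 1 stronger and 1 reversed. The number of lists with a median at least 0.3 from the median gene stayed within 1.5 times. The medians of 2 lists reversed without the filter on dim genes, lysozymes to 0.056 and gut proteases to 0.010, where genes at the floor on both arrays read above the median gene by construction. The gene toh-1 (1.35) reversed with unshared probe sets, to -0.080. NP was nearer to DEHP at 59.2% of higher genes with quantile scaling. It was nearer to BPA at 69.2% of lower genes without the filter and 86.0% with the stricter one. The cause of these shifts was not tested. No paired analysis was possible because each group has 1 array. Signal over background limits the dim genes.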
